A study of Mus musculus with 2 samples.

Results

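Cathepsins L, B, S, H, Z and D, legumain and the lysosome membrane proteins LAMP1 and LAMP2 were followed across the cell types of postischemic mouse kidney. These genes, Ctsl, Ctsb, Ctss, Ctsh, Ctsz, Ctsd, Lgmn, Lamp1 and Lamp2, were taken by symbol, and all 9 were found among the 32285 genes counted. Single-cell RNA was measured in 2 libraries, each from the kidney tissue of 1 male C57BL/6 mouse, 9 weeks old, killed 24 h after bilateral renal ischemia-reperfusion injury (IRI). The control mouse received saline and the other 100 mg/kg JPI-289, an inhibitor of poly(ADP-ribose) polymerase (PARP), into the peritoneal cavity just before reperfusion. The injury was common to both mice, and neither uninjured kidney nor any separate genotype is in the comparison. With n = 1 per condition there is no replicate error and no test between the conditions. Every interval below is an exact 95% interval that covers counting error only.

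Lysosomes are acidic organelles that break down proteins, lipids and sugars taken up by endocytosis or delivered by autophagy. The cathepsins are their proteases, made as inactive precursors and activated in the acidic lumen, and LAMP1 and LAMP2 are heavily glycosylated proteins of the lysosome membrane. Proximal tubule cells take up filtered protein and degrade it in lysosomes, and macrophages use the same organelle for phagocytosed material and for antigen processing.

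The control library held 38328760 UMIs, the unique molecular identifiers that count RNA molecules, and the JPI-289 library 35548396. After cell calling and a mitochondrial filter, 3753 control cells and 5029 JPI-289 cells remained, with medians of 2053 and 1871 UMIs, and 23 cell barcodes occurred in both libraries. Clusters were named from marker genes, with the 9 genes kept out of the clustering. The class called proximal tubule (PT)-like held 1791 control and 1631 JPI-289 cells, and all 10 general PT markers were detected in it in each library. Their summed level was 11289 CPM (UMIs in each 1000000 UMIs of the same cells and library) in the control and 4466 with JPI-289, while that of 6 injury markers was 824 and 8273. The macrophage-like class held 131 and 170 cells and the monocyte-like class 69 and 131 cells.

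All levels are in CPM. The kit reads transcripts from their 5′ end, so a level is compared between cell types or libraries within a gene, not between genes. In the annotation of GRCm38 (mm10) all 9 genes are protein coding. The papain-type cysteine proteases are Ctsl (ENSMUSG00000021477, chr13:64359337-64370890), Ctsb (ENSMUSG00000021939, chr14:63122462-63145923), Ctss (ENSMUSG00000038642, chr3:95526786-95556403), Ctsh (ENSMUSG00000032359, chr9:90054152-90076089) and Ctsz (ENSMUSG00000016256, chr2:174427493-174439039). Ctsd (ENSMUSG00000007891, chr7:142375911-142388038) encodes an aspartic protease and Lgmn (ENSMUSG00000021190, chr12:102394084-102439813) the asparagine endopeptidase legumain. The membrane proteins are encoded by Lamp1 (ENSMUSG00000031447, chr8:13159161-13175338) and Lamp2 (ENSMUSG00000016534, chrX:38401357-38456454). A gene model on the same strand overlaps Ctsl (Gm49230), Ctsd (Gm49369) and Ctss (Hmgb1-ps5), so reads there may have been assigned to either gene or dropped. The positions span introns and exons, while the UMIs are the deposited counts of each gene. The study's methods do not state whether intronic reads were counted.

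Many lysosome genes carry near their start the letters CACGTG, the core of the sequence read by the transcription factor TFEB. The window from 250 bases before to 50 bases after the RefSeq start (GRCm38.p6) was on hand for 7 of the 9 genes, with none for Ctsb and Ctsh. CACGTG, which reads the same on both strands, lay in 7.15% of 32851 windows of all genes. It occurred 4 times in the Lamp1 window, 2 times for Ctsd, 1 time for Ctsl and 1 time in the second of the Lgmn windows, and did not occur for Ctss, Ctsz, Lamp2 or the first Lgmn window. The longer TCACGTGA, which contains CACGTG and lay in 0.974% of windows, occurred only for Ctsd. The Lamp1 and Ctsd stretches are shown because they hold the densest run of CACGTG and the longer form, with CACGTG in capitals. The Lamp1 stretch lies at chr8:13159091-13159160 on the plus strand, just before the start. The Ctsd stretch lies at chr7:142387908-142387937 on the minus strand, before the RefSeq start but within an exon of a longer annotated transcript.
Lamp1: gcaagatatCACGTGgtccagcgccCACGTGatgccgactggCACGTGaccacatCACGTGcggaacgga
Ctsd: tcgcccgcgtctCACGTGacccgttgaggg
A match is a description of these letters and no measure of binding.

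The 9 genes did not share a cell type. Ctss was almost confined to macrophage-like and monocyte-like cells, Ctsd was highest in distal tubule and collecting duct cells, and Ctsl in the control was highest in monocyte-like cells and with JPI-289, as the cells were grouped here, in early PT-like cells. Of the 9 genes, 8 had a higher level in macrophage-like than in PT-like cells in both libraries, and 6 when PT-like clusters with a median under 2000 UMIs were left out. The exception was Ctsl, with 989.9 in macrophage-like and 656 in PT-like control cells, but 903 and 1868 with JPI-289. For Lamp2 the macrophage-like and PT-like intervals overlapped in the control (310 to 412 and 315 to 340) and with JPI-289 (256 to 351 and 262 to 286). For Lamp1 they overlapped in the control (723 to 875 and 710 to 747). The share of all genes with a higher level in macrophage-like cells was not computed, so the count has no background.

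**Figure D1:**
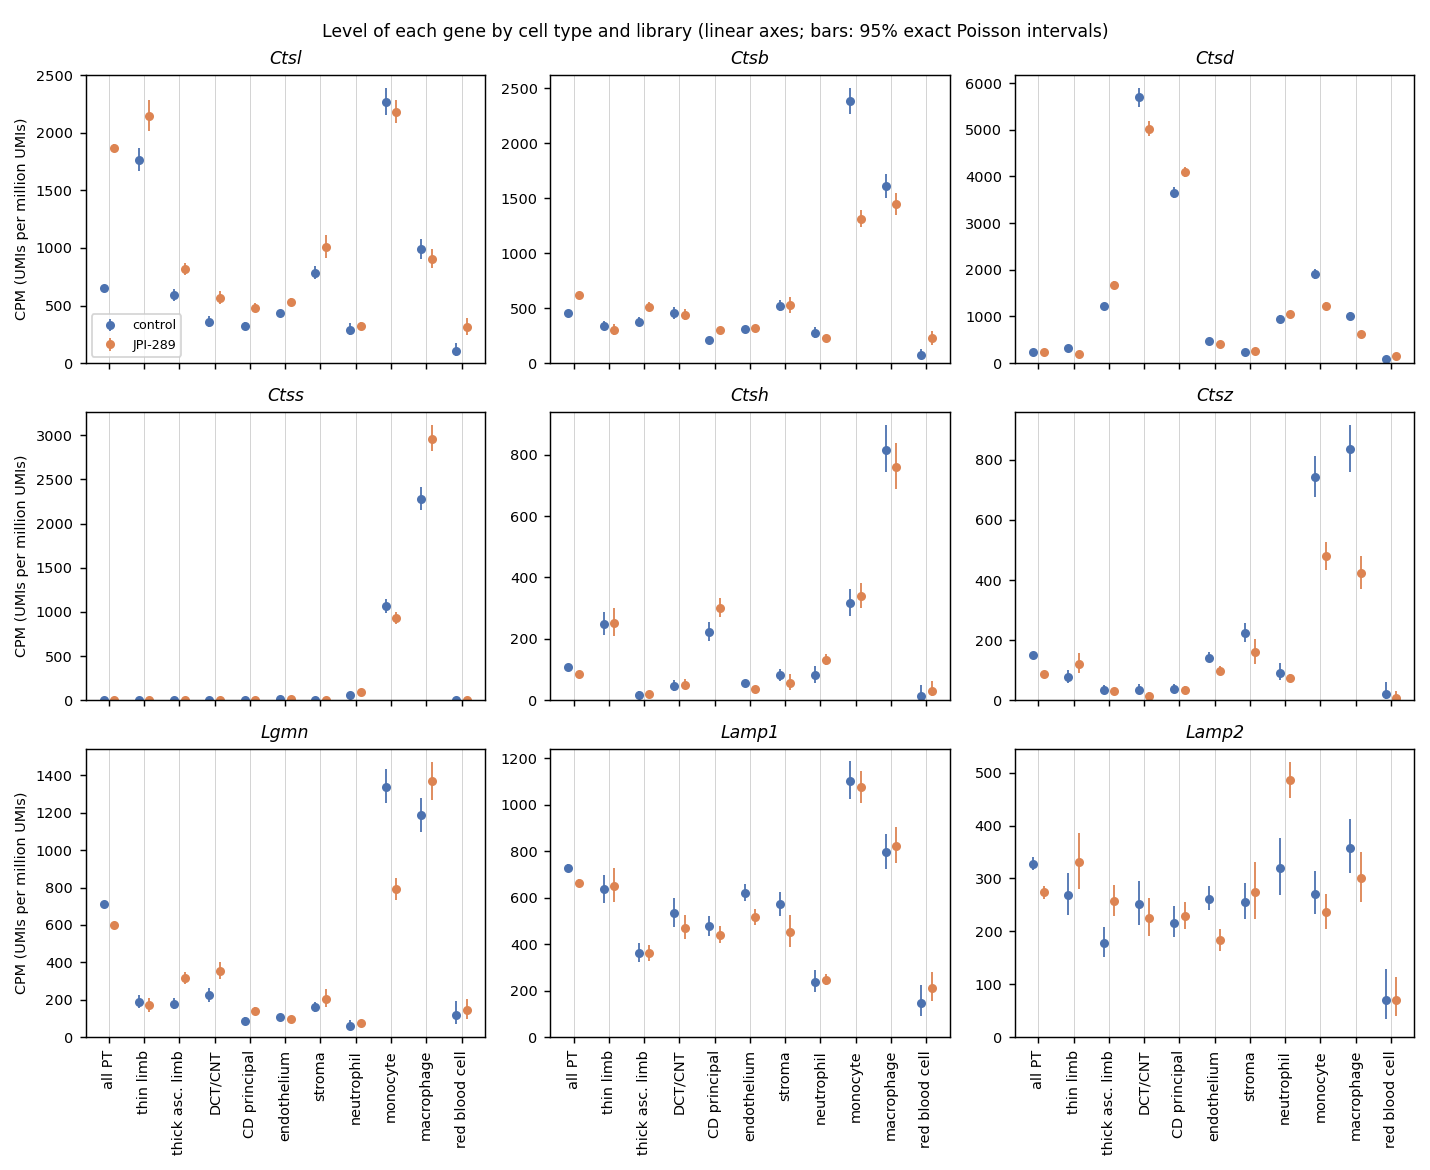
Level of each gene, in CPM on linear axes that start at 0, in 11 cell types (all PT, PT-like cells; DCT/CNT, distal convoluted and connecting tubule-like; CD, collecting duct), with control in blue, JPI-289 in orange and 95% exact Poisson intervals as bars. Ctss stands at 2279 and 2961 in macrophage-like cells and near 0 in the tubule, whereas Ctsd is highest in DCT/CNT cells at 5694 and 5024.

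Cathepsin S, which cleaves the invariant chain in antigen-presenting cells, stood at 2279 (2155 to 2409) in control macrophage-like cells and at 2961 (2817 to 3111) in JPI-289 macrophage-like cells. In monocyte-like cells its level was 1068 and 932, and in neutrophil-like cells 57.5 and 95.3. The order of the classes was thus the same in both libraries, and no neighbours among these 3 cell types had overlapping intervals. PT-like cells had 14 Ctss UMIs in the control and 6 with JPI-289, or 1.73 and 0.820 CPM, below the 40.8 and 49.5 CPM in free RNA, taken from barcodes of fewer than 100 UMIs. Red blood cell-like cells had 0 Ctss UMIs in either library, where a limit of 3 counts, used here in place of an interval, allows a level of up to 21.2 and 13.2 CPM. With each cell thinned to 1000 UMIs, 83.2% of control and 88.4% of JPI-289 macrophage-like cells had a Ctss UMI, against 0% of red blood cell-like cells in both libraries; the median depths before thinning were 4038 and 2822 UMIs in macrophage-like and 1520 and 1531 in red blood cell-like cells. Thinning left out 36 and 32 macrophage-like cells as too shallow.

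The balance between Ctss and Ctsl differed between the myeloid classes. For each 100 Ctsl UMIs there were 230.3 (208 to 255) Ctss UMIs in control macrophage-like cells and 328 (296 to 364) with JPI-289. The ratio was 47.0 and 42.7 in monocyte-like cells, 19.8 and 29.2 in neutrophil-like cells, and 0.263 and 0.0439 in PT-like cells. The macrophage-like cells therefore held more Ctss than Ctsl UMIs, and each of the other 3 classes fewer. The ratio also holds the 5′ capture of both genes, so its size has no meaning outside such a comparison.

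Cathepsin D, the aspartic protease, had a level of 5694 (5500 to 5893) in control DCT/CNT-like cells and of 5024 (4859 to 5193) with JPI-289. Collecting duct principal-like cells followed at 3651 and 4101, and thick ascending limb-like cells at 1222 and 1675. PT-like cells were at 231 and 242, below each of these 3 distal classes in both libraries. The median depth of the collecting duct class was 9236 UMIs in the control and 1538 with JPI-289, and at 1000 UMIs per cell 84.5% and 90.1% of its cells had a Ctsd UMI. The share in DCT/CNT-like cells was 81.4% and 80.0%, in PT-like cells 16.7% and 20.8%, and in red blood cell-like cells 7.14% and 12.9%.

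Cathepsin L in the control was highest in monocyte-like cells at 2271, followed by thin limb-like cells at 1764. With JPI-289 early PT-like cells stood highest at 3186, followed by monocyte-like and thin limb-like cells at 2183 and 2146, whose intervals overlapped. This first place depended on the grouping: without the highest 5% of doublet scores early PT-like cells, then 1315 in number, were at 2099 and monocyte-like cells at 2232, and with each library clustered alone they were at 2192 and 2175. Cathepsin B was highest in macrophage-like cells, at 1607 and 1444, and monocyte-like cells, at 2380 (2263 to 2502) and 1315 (1238 to 1394). Neutrophil-like cells had 271 and 231 CPM of Ctsb. Cathepsin H, an aminopeptidase, was highest in macrophage-like cells at 816 and 761, with monocyte-like cells at 316 and 339.6 and collecting duct principal-like cells at 222 and 301. Thick ascending limb-like cells had 17.2 and 19.6 CPM of Ctsh. Cathepsin Z, a carboxypeptidase, was highest in macrophage-like (835 and 423) and monocyte-like (742 and 479) cells, whose intervals overlapped in each library. Ctsb, Ctsh and Ctsz thus had their highest levels in macrophage-like or monocyte-like cells in both libraries.

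Legumain, which trims other lysosomal proteases, was high in mononuclear myeloid cells and the PT. Its level was 1339 and 789.7 in monocyte-like cells, 1185 and 1367 in macrophage-like cells and 709.7 and 598 in PT-like cells, but 62.1 and 77.3 in neutrophil-like and 109 and 96.7 in endothelium-like cells. Lamp1 ranged from 239 in control neutrophil-like cells to 1102 in control monocyte-like cells outside the red blood cell-like class. Lamp2 ranged in the control from 179 in thick ascending limb-like to 366 in late PT-like cells on the same terms, and the intervals of its 4 highest classes (late PT-like, macrophage-like, neutrophil-like and early PT-like) overlapped from each to the next. With JPI-289 the highest Lamp2 level was in neutrophil-like cells, at 486. Neutrophil-like cells held 134 and 197 Lamp2 UMIs for each 100 of Lamp1, against 45.0 and 41.3 in PT-like and 45.0 and 36.5 in macrophage-like cells.

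In PT-like cells Ctsl was higher and Ctsz lower with JPI-289 than in the control, and the other genes differed by less. Ctsl stood at 656 (638 to 674) in the control and 1868 (1836 to 1899) with JPI-289, a log2 ratio of 1.51 (1.46 to 1.56). Ctsz stood at 152 (144 to 161) and 88.7 (82.0 to 95.8), a log2 ratio of -0.78 (-0.92 to -0.64). Of the 8 genes with at least 100 UMIs over both libraries in these cells, which excludes Ctss, 1 was higher and 1 lower with JPI-289 by 1.5-fold or more. Over all 8630 genes tested the same way, 20.5% were higher and 30.3% lower, so a count of 1 in each direction is not above that background. The median log2 ratio was -0.19 for the 8 genes and -0.09 for all genes.

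Over all PT-like cells the other 6 genes differed by less than 1.5-fold. Ctsb passed at 0.71 when every cell had equal weight, where Ctsz, at -0.37, did not pass. Ctsb also passed in cells under 4000 UMIs, at 0.64 to 0.79 over their depth ranges, but not at 4000 or more (0.35). It passed at 20% or more mitochondrial UMIs (0.64), but not at under 5% (0.49) or 5% to under 20% (0.44). Over all PT-like cells Ctsb was at 456 and 616 (log2 ratio 0.44, 0.37 to 0.50), and Ctsd at 231 and 242 (0.06, -0.03 to 0.16). Ctsh was at 108 and 86.8 (-0.32), Lgmn at 709.7 and 598 (-0.25), Lamp1 at 728 and 664 (-0.13) and Lamp2 at 328 and 274 (-0.26). Among these 6 the interval held 0 for Ctsd alone. The direction of Lamp1 depended on the cells. Its log2 ratio was 0.22 (0.13 to 0.32) in cells with under 5% mitochondrial UMIs and 0.28 (0.12 to 0.44) in cells of 2000 to under 4000 UMIs. With equal weight of each cell it was 0.09, without an interval, since weighted sums are not counts.

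**Figure D2:**
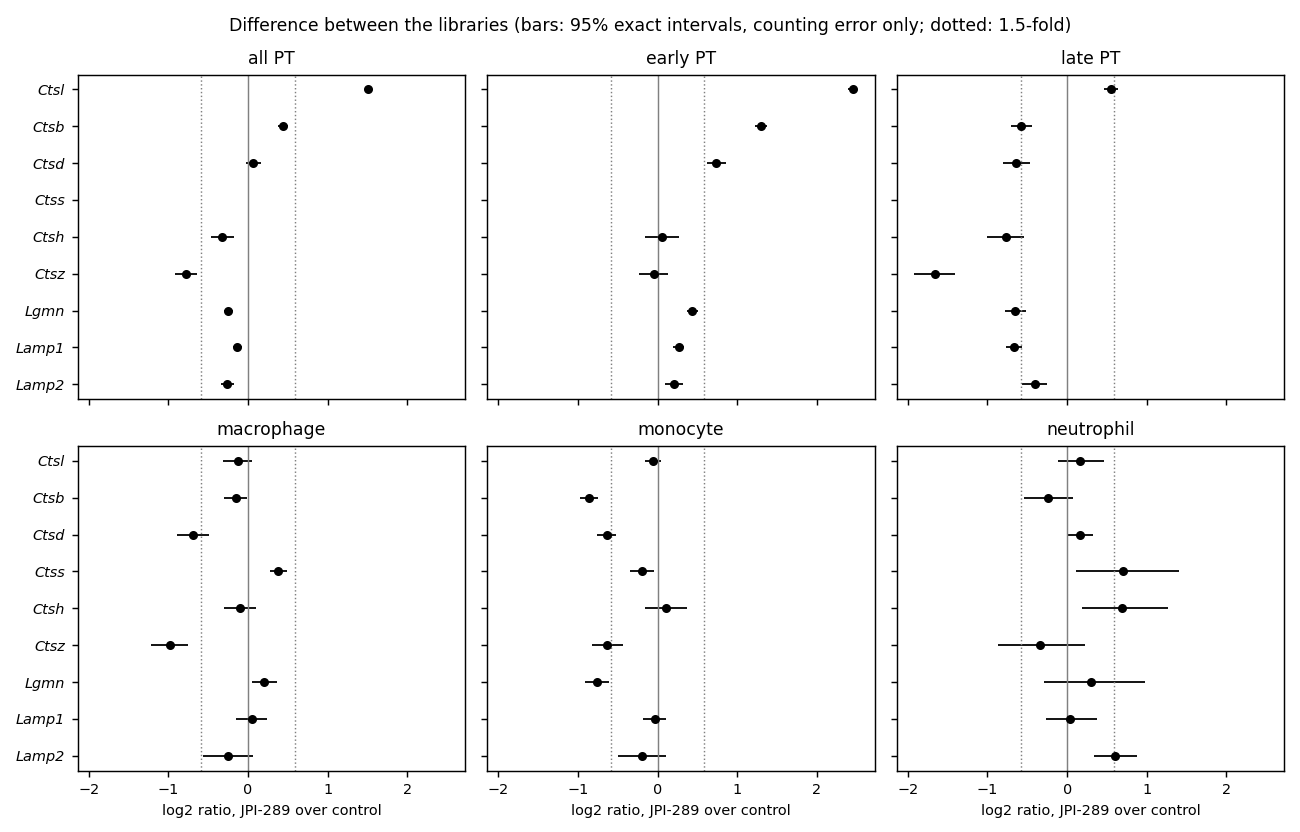
Log2 ratio of JPI-289 over control for each gene with at least 100 UMIs, in PT-like cells (all, early and late) and in macrophage-like, monocyte-like and neutrophil-like cells, with 95% exact intervals for counting error as bars and 1.5-fold as dotted lines. Ctsl is the farthest to the right in early PT-like cells at 2.45, and Ctsz the farthest to the left in late PT-like cells at -1.66.

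The values differed between PT-like segments, and so did the markers behind them. The early markers summed to 2714.5 and 1255.5 in early PT-like cells and the late markers to 1461 and 411 in late PT-like cells, while the injury markers were at 706 and 6443.5 in early and 1285 and 9896 in late PT-like cells. The part of these shifts in the segment values was not tested. Early PT-like cells (S1/S2 markers, 1603 control and 484 JPI-289 cells) had Ctsl at 583 (564 to 602) and 3186 (3120 to 3252), Ctsb at 427 and 1046, and Ctsd at 204 and 340.0. Their log2 ratios were 2.45, 1.29 and 0.74, and these 3 of 8 genes were higher and 0 lower by 1.5-fold, where 15.1% of 7415 genes were higher and 36.3% lower. Lgmn (737 and 996, log2 ratio 0.43), Lamp1 (661 and 793, 0.26) and Lamp2 (318 and 367, 0.21) were higher by less than 1.5-fold. Ctsh (88.0 and 91.4) and Ctsz (131 and 126) had intervals that held 0. The median of the 8 was 0.35, and of all genes -0.24.

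Late PT-like cells (S3 markers, 165 control and 303 JPI-289 cells) had 0 of 8 genes higher and 5 lower by 1.5-fold, against 34.1% of 4652 genes higher and 18.2% lower. Ctsz was at 239 (216 to 264) and 75.6 (65.3 to 87.1), a log2 ratio of -1.66. Ctsh (193 and 113, -0.77), Lamp1 (994 and 625, -0.67), Lgmn (604 and 385, -0.65) and Ctsd (338 and 217, -0.64) were the other 4. Ctsl again had the higher level with JPI-289, at 953 and 1392 (0.55), just inside 1.5-fold. Ctsb, higher in early PT-like cells, was lower here at 567 and 380 (-0.577, -0.71 to -0.44), also just inside 1.5-fold. Lamp2 was lower at 366 and 276 (-0.41, -0.57 to -0.25). The median of the 8 was -0.64, and of all genes 0.21.

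These segment values rest on clusters that came almost wholly from a single library, so cluster and treatment cannot be told apart. Early PT-like control cells were clusters 0, 8 and 14, with gluconeogenesis genes (Pck1, G6pc) or the phosphate transporter Slc34a1 among their leading genes, and all but 6 of the early PT-like JPI-289 cells were cluster 5, led by the fibrinogen chains Fgg, Fgb and Fga and the glucose transporter Slc5a2. Late PT-like cells were cluster 18 in the control (Slc22a6, Nat8) and cluster 11 with JPI-289 (Kap, Cyp2e1, Krt20, Havcr1). A further 844 JPI-289 cells in cluster 1, led by Krt20, met no segment. Over 7 other ways of calling, filtering or clustering the cells, the log2 ratio of early PT-like cells was 1.65 to 2.49 for Ctsl, 0.55 to 1.33 for Ctsb and 0.06 to 0.77 for Ctsd, and Ctsd passed 1.5-fold in 3 of them. The ranges of the genes not called were -0.63 to 0.06 for Ctsh and -0.70 to -0.03 for Ctsz. They were -0.31 to 0.65 for Lgmn, -0.10 to 0.27 for Lamp1 and -0.48 to 0.31 for Lamp2. Ctsh thus passed as lower in 1 grouping, Ctsz as lower in 2 and Lgmn as higher in 1. Late PT-like cells had at least 50 cells in both libraries in only 2 of the 7, where Ctsz was at -1.62 and -1.59. There Lgmn, at -0.58 and -0.57, no longer passed, Ctsd passed in 1 of them and Ctsl passed as higher in 1, at 0.59.

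The PT-like clusters of the same library also differed from each other. In the control Ctsl was 236 in cluster 0, 461 in cluster 14, 861 in cluster 8 and 953 in cluster 18. With JPI-289 it was 599.9 in cluster 1, 1393 in cluster 11 and 3189 in cluster 5. Cluster 5 stood above every other PT-like cluster for Ctsl and for Ctsb, with 1048 against at most 591. Lgmn was at 1039 in control cluster 8 and 997 in JPI-289 cluster 5, and at 342 in control cluster 0 and 304 in JPI-289 cluster 1, with overlapping intervals in each of these pairs.

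**Figure D3:**
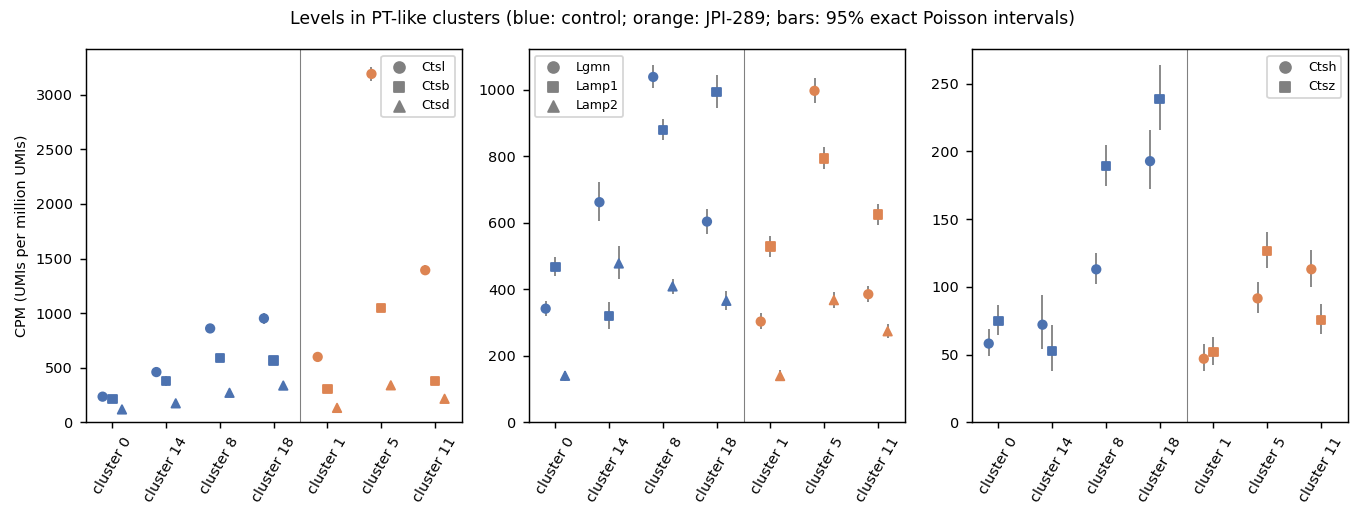
Level of 8 genes, in CPM on linear axes from 0, in the 7 PT-like clusters with at least 50 cells in a library (blue, control; orange, JPI-289; bars, 95% exact Poisson intervals; vertical line, between the libraries). Ctsl reaches 3189 in cluster 5, while the Lgmn intervals overlap in clusters 8 and 5 (1039 and 997) and in clusters 0 and 1 (342 and 304).

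The mitochondrial share of UMIs also differed between these clusters. Its median was 2.60% in cluster 0, 1.86% in cluster 14 and 2.90% in cluster 1, but 11.9% in cluster 8, 9.49% in cluster 18, 9.35% in cluster 5 and 4.65% in cluster 11. In the control Ctsl was 861 in cluster 8 and 953 in cluster 18, against 461 in cluster 14 and 236 in cluster 0. The part of the mitochondrial share in these Ctsl levels was not tested. Among PT-like cells with under 5% mitochondrial UMIs, Ctsl was 384 in the control and 1181 with JPI-289, and at 5% to under 20% it was 822 and 2396. The log2 ratio of Ctsl was 1.62, 1.54 and 1.61 in cells with under 5%, 5% to under 20% and 20% or more. These ranges, too, pool clusters that came almost wholly from a single library, so cluster and treatment cannot be told apart within them. Ctsz had log2 ratios of -0.34, -0.90 and -0.84 in the same ranges, and was past 1.5-fold only in the upper 2.

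Over ranges of cell depth the level of Ctsl in PT-like cells did not rise steadily, but each range pools clusters that came almost wholly from a single library. In PT-like cells of 500 to under 1000 UMIs Ctsl was 644 in the control and 1816 with JPI-289, and in cells of 4000 UMIs or more 689 and 1858. Its log2 ratio was 1.49, 1.84, 1.85 and 1.43 from the shallowest to the deepest of 4 ranges. Ctsz differed with depth: its log2 ratio was -0.19, -0.07 and -0.31 in the 3 shallower ranges, each with an interval that held 0, and -0.94 in cells of 4000 UMIs or more. Ctsb was past 1.5-fold in the 3 shallower ranges, at 0.78, 0.79 and 0.64, but not in cells of 4000 UMIs or more, at 0.35. Lgmn had a log2 ratio of 0.23 at 2000 to under 4000 UMIs and of -0.36 at 4000 or more. Between control clusters, Ctsl was lower in clusters 0 and 14 than in the deeper clusters 8 and 18. Cluster 18 was shallower than cluster 8 but had the higher Ctsl level, at 953 against 861. The median UMIs were 1380 in cluster 0, 2646 in cluster 14, 5370 in cluster 18 and 6452 in cluster 8. With JPI-289 they were 1168 in cluster 1, 3573.5 in cluster 5 and 5023 in cluster 11, where Ctsl was 599.9, 3189 and 1393. The part of depth in the Ctsl levels of the clusters was not tested.

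**Figure D4:**
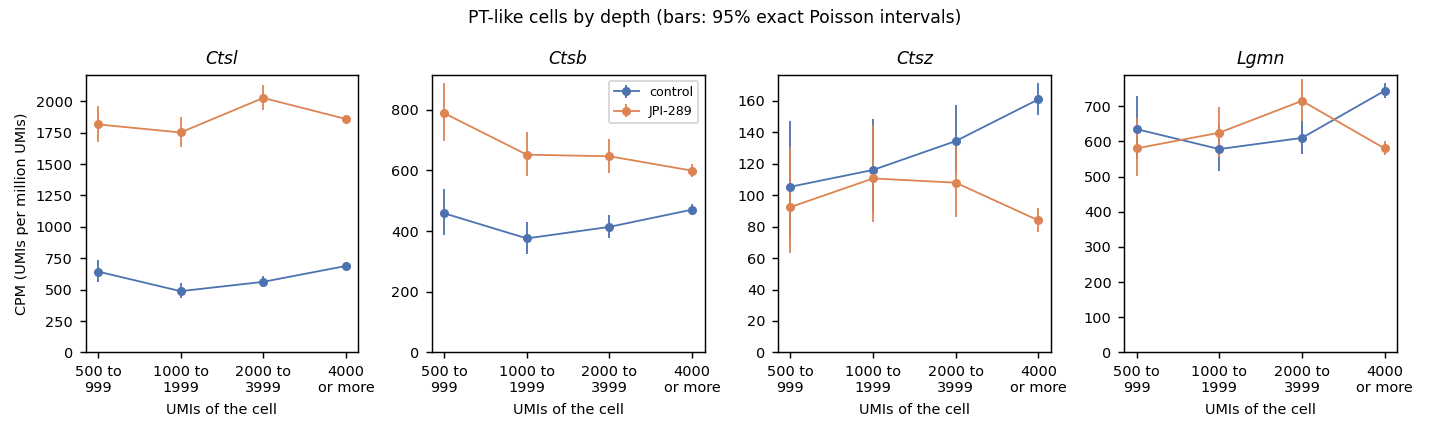
Level of Ctsl, Ctsb, Ctsz and Lgmn in PT-like cells grouped by the UMIs of the cell, in CPM (control, blue; JPI-289, orange; bars, 95% exact Poisson intervals; axes from 0). The Ctsl lines stay apart in all 4 ranges, whereas the Ctsz lines separate most in cells of 4000 UMIs or more, at 161 and 83.9.

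Free RNA carried the same difference in Ctsl. In barcodes of fewer than 100 UMIs Ctsl was 571 (503 to 646) CPM in the control and 1379 (1258 to 1509) with JPI-289. Red blood cell-like cells, which should hold little of it, had 106 and 313. These levels rest on 15 and 71 UMIs, under the minimum of 100 over both libraries for a comparison. After free RNA was subtracted, the log2 ratio of Ctsl in PT-like cells stayed past 1.5-fold, and it was between 1.45 and 1.70 in all 15 alternatives tried. The share subtracted was 8.47% of PT-like UMIs in the control and 4.89% with JPI-289, so this step could move the ratio only a little. Free RNA also held less Ctsz with JPI-289, at 61.1 (37.8 to 93.4) CPM against 136 (104 to 175) in the control. In PT-like cells the monocyte markers summed to at most 23.8 CPM and the macrophage markers to at most 4.44, both in the control.

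Outside the PT, Ctsl was higher with JPI-289 in the tubule and endothelial classes, by less than in all PT-like cells (log2 ratio 1.51). Ctsl was 591 and 813 in thick ascending limb-like cells (log2 ratio 0.46) and 358 and 566 in DCT/CNT-like cells (0.66). It was 321 and 483 in collecting duct principal-like cells (0.59) and 433 and 528 in endothelium-like cells (0.29). Late PT-like cells alone had a log2 ratio of 0.55 (0.46 to 0.64). The DCT/CNT-like and collecting duct principal-like ratios were above that value, with intervals that overlapped its interval. The part of free RNA in these differences was not tested. Lgmn was higher in the same tubule classes, at 179.8 and 316 in thick ascending limb-like cells (log2 ratio 0.81), 223 and 355 in DCT/CNT-like cells (0.66) and 85.5 and 138 in collecting duct principal-like cells (0.69), while free RNA held 439.9 and 425.

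Counted by class, thick ascending limb-like cells had 1 of 6 tested genes higher (Lgmn) and 0 lower by 1.5-fold, against 18.9% and 15.7% of all 2669 genes. DCT/CNT-like cells had 2 of 6 higher (Ctsl and Lgmn) and 0 lower, against 17.9% and 13.2% of 1683 genes. Collecting duct principal-like cells had 2 of 7 higher (Ctsl and Lgmn) and 0 lower, against 21.4% and 16.4% of 3309 genes. The collecting duct class held 80 control cells with a median of 9236 UMIs and 382 JPI-289 cells with 1538. The part of this depth gap, and shifts in the markers of these tubule classes, were not tested. Endothelium-like cells had 0 of 8 higher and 1 lower, Ctsh at 54.9 and 35.5, against 17.3% and 21.0% of 5344 genes. This class joined cluster 4, from both libraries, with cluster 13 (203 control and 33 JPI-289 cells) and cluster 17 (2 and 184). Its red blood cell markers summed to 109 and 1351 and its injury markers to 994 and 3020, and their part in the Ctsh value was not tested. These are counts of few genes and describe the single pair of libraries.

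In macrophage-like cells Ctsz and Ctsd were lower with JPI-289, and Ctss was higher by less than 1.5-fold. Ctsz was at 835 (760 to 915) and 423 (369 to 481), a log2 ratio of -0.98 (-1.22 to -0.75). Ctsd was at 1001 (919 to 1088) and 619.7 (555 to 690.3), a log2 ratio of -0.69 (-0.89 to -0.49). Ctss had a log2 ratio of 0.38 (0.27 to 0.49) and Lgmn of 0.21 (0.05 to 0.36). Of the 9 genes 0 were higher and 2 lower by 1.5-fold, against 18.3% and 23.4% of 1592 genes. The intervals of Ctsl, Ctsh, Lamp1 and Lamp2 held 0, and Ctsb was at -0.15 (-0.30 to -0.01). With equal weight of each cell Ctsb was at 0.20 and Ctsl at 0.42, without intervals, since weighted sums are not counts. Ctsl was at -0.45 in cells called by depth alone and at -0.49 after subtraction of free RNA from barcodes of 100 to 300 UMIs. The sign of both genes thus depended on the setting.

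The macrophage-like class came from the same cluster in both libraries, but its own markers differed. The 8 macrophage markers were all detected in both and summed to 13988 CPM in the control and 6892 with JPI-289. C1qa, a complement chain, was at 4328.5 and 1613, whereas Cd74, the invariant chain that cathepsin S cleaves, was at 8029 and 14110.0. The 5 red blood cell markers summed to 80.4 and 3587 in these cells. The part of such shifts in the Ctsz, Ctsd and Ctss values was not tested.

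Monocyte-like cells had 0 of 9 genes higher and 4 lower by 1.5-fold, against 19.4% and 17.3% of 2354 genes. Ctsb was at 2380 and 1315 (log2 ratio -0.86), Lgmn at 1339 and 789.7 (-0.76), Ctsd at 1907 and 1225 (-0.64) and Ctsz at 742 and 479 (-0.63). Ctsl, at 2271 and 2183 (-0.06), and Lamp1, at 1102 and 1075 (-0.04), had intervals that held 0. The 4 lower genes stayed past 1.5-fold in all 6 other groupings of the cells that kept this class. The monocyte markers summed to 9104 and 5019 and the macrophage markers to 2549 and 855 in these cells, and the part of that in the member values was not tested.

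Neutrophil-like cells had 3 of 9 genes higher and 0 lower by 1.5-fold, against 25.2% and 11.5% of 2477 genes. Lamp2 was at 319.6 and 486 (log2 ratio 0.60, 0.34 to 0.87), Ctsh at 80.5 and 132 (0.69, 0.19 to 1.27) and Ctss at 57.5 and 95.3 (0.70, 0.11 to 1.40). The Ctss value rests on 25 and 154 UMIs and the Ctsh value on 35 and 213. Free RNA held 40.8 and 49.5 CPM of Ctss, 99.8 and 72.7 of Ctsh, and 342 and 303 of Lamp2. Ctsd, the gene with the most UMIs among the 9 in these cells, was at 938 and 1052 (0.16). The monocyte markers in this class summed to 4837 and 1375 and the PT markers to 1437 and 390.3, and 37 of its JPI-289 cells formed a cluster with no control cell. The part of these shifts in the 3 higher values was not tested.

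The rest of the lysosome was described with 114 further genes in 8 lists by role. In PT-like cells 93 of them had at least 100 UMIs, of which 9 (9.68%) were higher and 27 (29.0%) lower with JPI-289 by 1.5-fold, next to the 20.5% and 30.3% of all genes. Their median log2 ratio was -0.31. The segments differed from this pooled value. In early PT-like cells 20 of 88 (22.7%) were higher and 27 (30.7%) lower, next to 15.1% and 36.3% of all genes. In late PT-like cells 5 of 67 (7.46%) were higher and 32 (47.8%) lower, next to 34.1% and 18.2%. Cluster and treatment cannot be told apart in these segments. By list, in all PT-like cells, the medians were -0.54 for other proteases and -0.53 for glycosidases, sulfatases, lipases and phosphatases. They were 0.01 for other membrane proteins and 0.01 for subunits of the vacuolar proton pump that acidifies the lumen.

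The counts by list are read against the 20.5% of all genes higher and 30.3% lower in these cells. Among other proteases, 0 of 8 were higher and 3 (37.5%) lower, the lowest being cathepsin F (Ctsf, 23.2 and 7.52 CPM, log2 ratio -1.61). Of the 25 glycosidases and related hydrolases 0 were higher and 10 (40.0%) lower, with beta-galactosidase (Glb1) at 52.9 and 17.9 (-1.56). Among pump subunits 1 of 17 (5.88%) was higher and 3 (17.6%) were lower, and Atp6v0a4 stood lowest of all lists at 247 and 35.5 (-2.79). Cystatin B (Cstb), a cytosolic inhibitor of papain-type cathepsins, was at 813 and 1884 (1.21, 1.17 to 1.26), which was in the direction of Ctsl. Cystatin C (Cst3), a secreted inhibitor, was at 190.4 and 184 (-0.05).

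Receptors and regulators were mixed in PT-like cells. Of the mannose 6-phosphate receptors that carry newly made cathepsins to lysosomes, M6pr was at 69.0 and 102 (log2 ratio 0.56) and Igf2r at 68.1 and 24.6 (-1.47). The transcription factor Tfe3, a relative of TFEB, was at 9.98 and 22.4 (1.16), and Lamtor5, of the complex that anchors mTORC1 to lysosomes, at 234 and 97.2 (-1.27). Among 14 regulators tested, 2 (14.3%) were higher and 5 (35.7%) lower, near the shares of all genes, with a median of -0.49. Of membrane proteins, Cd63 had the most UMIs and stood at 1751 and 1935 (0.14), and Hgsnat, an acetyltransferase for heparan sulfate, at 20.8 and 47.2 (1.18).

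In macrophage-like cells 41 of the 114 genes were tested, of which 2 (4.88%) were higher and 11 (26.8%) lower, next to the 18.3% and 23.4% of all genes, with a median of -0.22. Cd63 was among the higher, at 979 and 2231 (log2 ratio 1.19). The macrophage membrane protein Cd68 was at 689 and 210.3 (-1.71), cathepsin C (Ctsc) at 909.5 and 300.5 (-1.59) and progranulin (Grn) at 1205 and 563 (-1.10). Laptm5, a membrane protein of leukocyte lysosomes, was at 1344 and 2002 (0.57). Psap, the precursor of the saposins, was at 2838 and 2436 (-0.22).

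**Figure D5:**
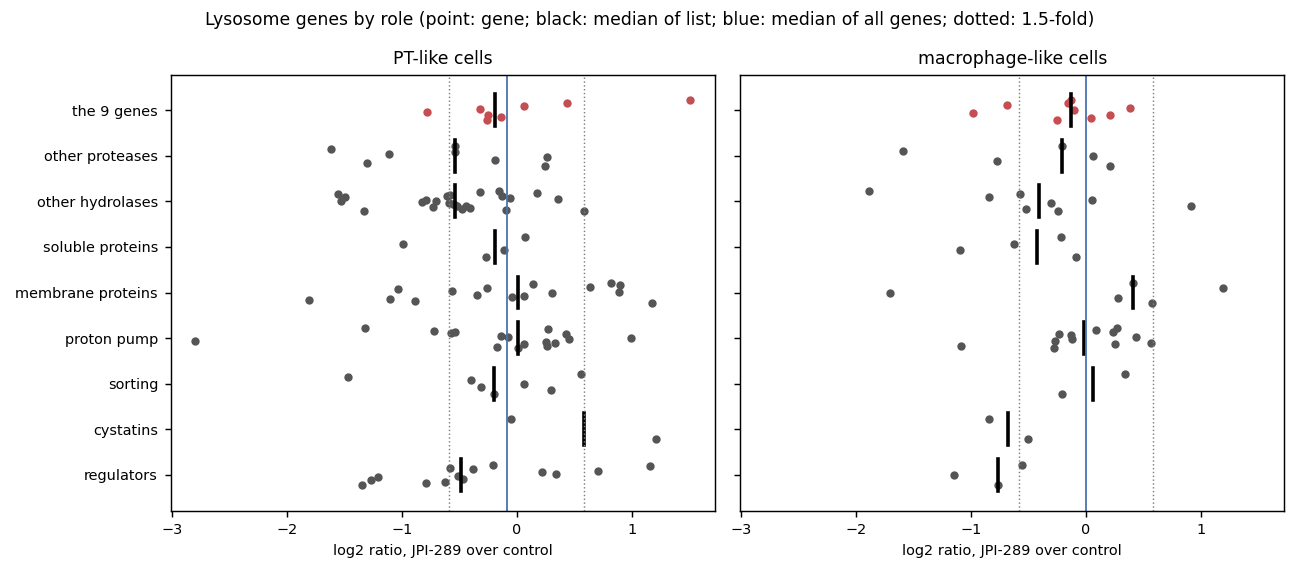
Log2 ratio of JPI-289 over control for lysosome genes by role in PT-like (left) and macrophage-like (right) cells, each point a gene with at least 100 UMIs over both libraries; black bars, median of the list; blue line, median of all genes tested; dotted lines, 1.5-fold. In PT-like cells Ctsl at 1.51 is the rightmost point of all lists, and Atp6v0a4 at -2.79 the leftmost.

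Likeness was measured as Pearson's r of log2 levels, with 10 added to each level, over 27 profiles, a profile being a cell class in a library with at least 50 cells, among 4882 genes. It is a description, since profiles of a library share its free RNA and preparation. Ctss was most like Rgs1 (r = 0.99), Fcgr2b (0.97) and Csf1r (0.96), all known from leukocytes. Ctsb was most like Psap (0.88), Lgmn (0.84) and Apoe (0.83), and Ctsz like Npc2 (0.90), Grn (0.87) and Apoe (0.87). Ctsd was most like Sh3bgrl3 (0.86), Sorl1 (0.82) and Arl4c (0.81), Ctsh like Grn (0.79), Abhd12 (0.78) and Ifngr1 (0.77), and Ctsl like Ptpn2 (0.77), Tram1 (0.77) and Twistnb (0.75).

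Within the 9 genes, the closest pair was Ctsb and Lgmn (r = 0.84), followed by Ctsb and Ctsz (0.77) and by Ctsb and Lamp1 (0.77). Ctsd was near 0 with Ctsl (-0.06), Ctsz (-0.06) and Lgmn (0.02). Lamp1 and Lamp2, the pair of membrane proteins, had an r of 0.47. Lgmn was after Ctsb most like Psap (0.79) and Ftl1-ps1 (0.76), Lamp1 like Vma21 (0.88), Rpl10 (0.85) and Eef1a1 (0.85), and Lamp2 like Tbl1xr1 (0.82), Nisch (0.82) and Supt5 (0.81).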

How the data were processed

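The authors prepared both libraries with the 10x Genomics 5′ kit v2, aligned them to mm10 and counted UMIs with Cell Ranger 5.0.1, per the labels and the study's methods. The deposited counts are whole-number UMI counts per gene and barcode, not normalized and not filtered for cells, so cells were called here. A barcode was kept in a first step by depth, or in a second step with at least 500 UMIs and a profile unlike barcodes ranked 45000 to 90000 (10000 simulations, false discovery rate 0.01), and dropped above 50% mitochondrial UMIs. Cells were clustered with scanpy 1.11.5 and leidenalg 0.10.2 (2000 variable genes without the 9 genes, 30 components, 20 neighbours, resolution 1) and named from marker lists by a rule set after the clusters were seen. Scrublet marked 0 control and 4 JPI-289 cells, so doublets were not removed. UMIs were summed per class and library. Genes with at least 100 UMIs over both libraries were compared as log2 ratios after 0.5 UMI was added, with exact Poisson (levels) and exact binomial (ratios) intervals, and called past 1.5-fold. The calling and ratio steps were tested on simulated data that held counting error only, so differences between mice or preparations were not covered. Cells are not replicates, so no test was run. The 9 genes and the lists were chosen with earlier results of these data known. Other genes named are, per list and class, the 2 with most UMIs and those with the highest and lowest log2 ratio, and for each of the 9 genes the 3 with the highest r. Positions come from GENCODE annotation of GRCm38, and promoter sequences from RefSeq. Public normal kidney data were not used here. Some genes that this rule names are not reported here.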

Additional observations from a re-analysis of the deposited data

Results flagged for a closer look

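Of the 9 genes, 5 were past 1.5-fold higher with JPI-289 in a cell class and past 1.5-fold lower in another, with intervals clear of 0. The same held for 15.3% of the 4583 genes tested in at least 3 classes, and a gene tested in more classes has more occasions to do so. The difference between the classes was not tested, since each class has 1 library per condition. Ctsb had a log2 ratio of 1.29 in early PT-like and -0.86 in monocyte-like cells, which are 2.15 apart. Ctsz had 0.67 in thin limb-like and -1.66 in late PT-like cells, 2.33 apart. The thin limb-like Ctsz value rests on 52 control and 58 JPI-289 UMIs, with an interval of 0.11 to 1.24. Lgmn had 0.81 in thick ascending limb-like and -0.76 in monocyte-like cells, 1.57 apart. Ctsd had 0.74 in early PT-like and -0.73 in thin limb-like cells, and Ctsh 0.69 in neutrophil-like and -0.77 in late PT-like cells, both 1.47 apart. The early PT-like Ctsd value passed 1.5-fold in only 3 of 7 other groupings of the cells. In the thin limb-like cluster the next marker list scored 1.21, against 3.37 for its own.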

How the results depend on the processing

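In all PT-like and in macrophage-like cells the counts of genes past 1.5-fold stayed within 1.5 times their value in all alternatives that gave one, except that with a minimum of 20 UMIs per gene 34 other lysosome genes passed in macrophage-like cells instead of 13. Ctsl in PT-like cells was past 1.5-fold in all 15 alternatives, and Ctsz in 14, with -0.37 when every cell had equal weight. Ctsd and Ctsz in macrophage-like cells were past 1.5-fold in all 14. Ctsb in PT-like cells passed 1.5-fold at 0.71 with equal weight. By segment, early PT-like cells had 1 gene higher instead of 3 with each library clustered alone, and Ctsz passed as lower at -0.63. At resolution 0.5 Ctsh and Ctsz passed as lower in early PT-like cells, at -0.63 and -0.70. Late PT-like cells had 3 lower instead of 5 with the 9 genes kept for clustering, and Ctsl passed as higher at 0.59. The shares of all genes were not computed for these settings. No called value changed its sign in PT-like or macrophage-like cells. None did in monocyte-like cells or the PT-like segments either, but these were recomputed only over other groupings of the cells, 2 for late PT-like cells. Equal weight of each cell, free RNA subtraction and other totals were not tried for them. The other classes were not recomputed. The count of 8 genes higher in macrophage-like than in PT-like cells was 7 with equal weight of each cell and 6 without the shallow PT-like clusters. At resolution 0.5 there was no macrophage-like class and so no value. The alternatives with free RNA taken from barcodes of 100 to 300 UMIs, and without PT-like clusters with a median under 2000 UMIs, were chosen after seeing the data. No paired analysis was possible because each condition has 1 library. With 1 mouse per condition, the treatment cannot be told apart from any other difference between the mice or the preparations. Cell calling and cluster names were rebuilt here and may differ from the study's, and genes under 100 UMIs in a class, such as Ctss in PT-like cells, could not be compared at this depth.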
